A study of Mus musculus with 16 samples.

Results

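A set of 10 genes of the hair bundle and of the hair cell were followed across the cochlear arrays. The members are Cdh23, Pcdh15, Myo7a, Myo6, Myo15, Ush1c, Fscn2, Espn, Otof and Slc26a5, and every probe with one of these as its only gene symbol in the array annotation was taken. That gave 15 probes for 10 genes, of 18193 genes with such a probe on the array. Gene expression was measured in the whole left cochlea of male DBA/2J mice, with 1 cochlea per array. The first group was 5 untreated mice at 4 weeks of age. Control cochleae came from 5 mice aged 12 weeks, injected subcutaneously every day for 8 weeks with the vehicle, sodium bicarbonate. Cochleae of the M+V group came from 6 mice, also aged 12 weeks, given L-methionine (MET, 500 mg/kg) and valproic acid (VPA, 300 mg/kg) in that vehicle over the same 8 weeks. All 3 groups share the inbred DBA/2J background, a strain with early progressive hearing loss that carries hearing loss alleles of Cdh23 and Fscn2, so no group here has wild-type copies of these members.

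Hair cells turn sound into electrical signals with a bundle of actin-filled stereocilia on their upper surface. Fine extracellular filaments, the tip links, join each stereocilium to its taller neighbour and pull on mechanotransduction channels when the bundle is deflected. Unconventional myosins carry, anchor and tension the parts of this machinery, scaffold proteins hold the tip link to the actin core, and actin crosslinkers stiffen and lengthen the core. Mutations in most of these genes cause deafness in mice and in humans. Hair cells are few among the bone, nerve, ligament and epithelial cells of a whole cochlea, and in such bulk samples fewer hair cells and less RNA per hair cell cannot be told apart.

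Values are log2 signals that the authors had scaled so that each array has the same distribution, with a median of 6.90 in every array. This median is the only reference level used here, because the signal of 1 probe cannot be set against that of another. The 5 marker genes of cochlear tissue were above it in 16 of 16 arrays, from Coch, which encodes cochlin, at 14.8 to 15.4 to Esrrb, a nuclear receptor of the stria vascularis, at 7.54 to 9.11. The hair cell markers looked at here were divided. Otof and Gfi1 were above the median in 16 of 16 arrays, whereas Pou4f3, a transcription factor of hair cells, Chrna9, an acetylcholine receptor subunit of outer hair cells, and Slc26a5 were above it in 0 of 16. Which cells of the whole cochlea gave the Gfi1 signal was not tested. Ocm, Slc17a8 and Chrna10, also listed as hair cell markers, are not given here. Some features of the arrays touch the comparisons. The signal of the bacterial control RNA bioB was between 8.91 and 9.62 in all 5 arrays of 4 weeks, 1 control array and 2 M+V arrays, and between 5.73 and 6.08 in the other 4 control and 4 M+V arrays. This spike-in level, high or low, is therefore partly bound to age. M+V replicate 1 also stood apart, with a mean of 5.21 over the erythroid list, against 10.2 or more in the other arrays.

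Which members reached the array median in whole cochlea differed sharply between genes. Present calls were not used here, so whether a probe below the median detected its transcript was not tested. A total of 5 probes of 4 genes, namely Myo7a, Ush1c, Otof and 2 of the 3 probes of Myo6, were at or above the array median in all 16 arrays. Myo15 reached it in 12 arrays, the brightest Pcdh15 probe in 5 and the dimmest Myo6 probe in 2. The remaining 7 probes never reached it: both probes of Cdh23, the other probes of Pcdh15, and the single probes of Fscn2, Espn and Slc26a5. Of all probes with a single gene symbol, 48.3% were at or above the median in every array and 35.3% were below it in every array. A probe was tested when all arrays of at least 1 group reached the median, which 6 member probes of 5 genes did. Myo15 passed through the 4 weeks group alone. The other 9 member probes were taken from the same limma model fitted without this filter, and their adjusted p-values are over all 45037 probes that are not controls.

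**Figure D1:**
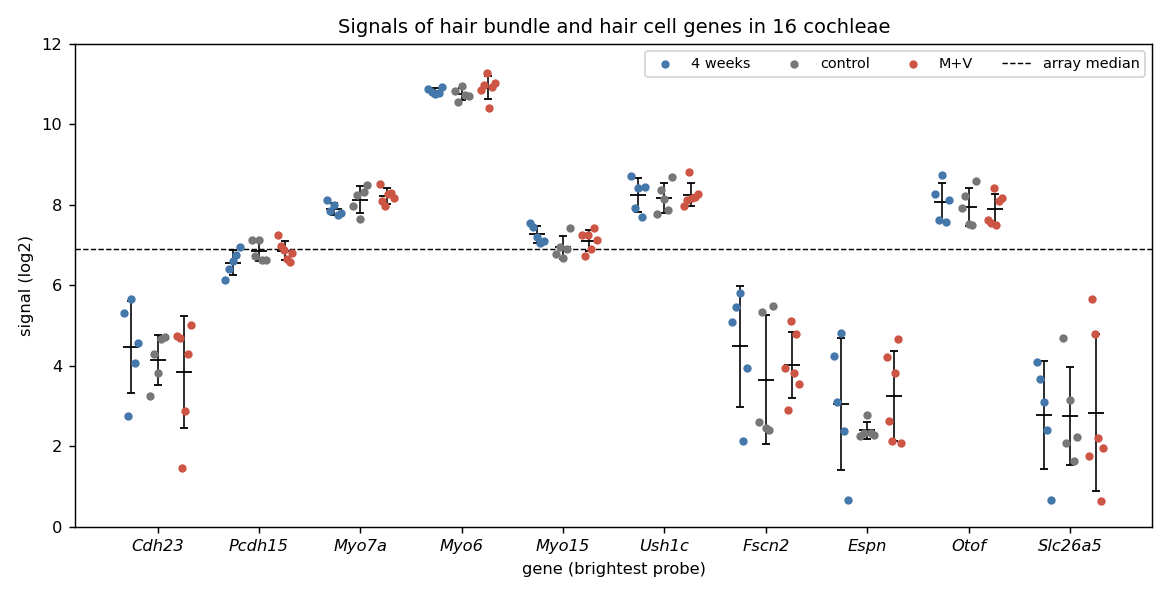
Signal (log2) of the brightest probe of each member in each of the 16 cochleae, by group; points are single arrays, black bars the mean and SD, and the dashed line the median of every array, 6.90. Myo7a, Myo6, Ush1c and Otof lie above the line in all arrays, Myo15 and Pcdh15 lie around it, and Cdh23, Fscn2, Espn and Slc26a5 lie below it with a wide spread between animals.

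Both members of the tip link were near or below the median. Cdh23 forms its upper part and Pcdh15 its lower part. The brightest Pcdh15 probe read 6.13, 6.40, 6.59, 6.76 and 6.96 at 4 weeks, 7.12, 6.73, 7.13, 6.64 and 6.63 in control mice, and 6.59 to 7.26 with a median of 6.84 in M+V-treated mice. The 3 groups overlapped. Their means were 6.57 ± 0.32 (SD, n = 5) at 4 weeks, 6.85 ± 0.25 (SD, n = 5) in control and 6.86 ± 0.24 (SD, n = 6) in M+V. The difference between M+V and control was 0.01 on the log2 scale, with a 95% interval from -0.34 to 0.37 and an adjusted p of 0.992 in limma. The other Pcdh15 probes had mean signals of 4.83 and 4.32. They gave M+V minus control differences of -0.10 and 0.93, with intervals that reached from -0.69 to 0.49 and from -0.63 to 2.49. Cdh23 varied more between mice of 1 group than between groups. Its brightest probe read 5.30, 2.74, 5.67, 4.08 and 4.57 at 4 weeks, 3.25, 4.30, 3.81, 4.67 and 4.71 in control mice, and 1.45 to 5.02 with a median of 4.50 in M+V-treated mice. The M+V minus control difference of -0.30 had an interval from -1.69 to 1.09, a range from 0.311-fold to 2.13-fold. That interval holds wide changes of Cdh23 on either side of 0. Without M+V replicate 3 the difference was 0.18, and on the log2(signal + 32) scale it was -0.02. Within the arrays of low spike-in level it was -0.96. Within those of high level, which held 1 control array, it was 1.48. The second Cdh23 probe gave an M+V minus control difference of -0.78 (95% interval -2.36 to 0.80).

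By their brightest probes, the 3 myosins were the members measured most closely. Myo6 encodes the only myosin known to walk towards the minus end of actin and, in hair cells, works at the base of the stereocilia. Which cells of the whole cochlea gave its signal was not tested. Its brightest probe read 10.9, 10.8, 10.8, 10.8 and 10.9 at 4 weeks, 10.8, 10.6, 11.0, 10.7 and 10.7 in control mice, and 10.4 to 11.3 with a median of 11.0 in M+V-treated mice. The 4 weeks values lay closest together, and the ranges of both groups at 12 weeks took them in. M+V exceeded control by 0.15 (95% interval -0.10 to 0.41), that is between 0.931-fold and 1.33-fold, with an adjusted p of 0.698 in limma. The second Myo6 probe differed by 0.07 between M+V and control. This probe read 9.65 to 10.3 at 4 weeks and 9.50 to 9.82 in control mice, a difference of -0.30 with an unadjusted p of 0.0641 and an adjusted p of 0.394 in limma, whereas the brightest probe differed by -0.08. The dimmest Myo6 probe, outside the filter, was also -0.30 in control relative to 4 weeks, with a wide 95% interval from -0.88 to 0.29. For M+V against control it differed by 0.19 (95% interval -0.37 to 0.75). The probes of 1 gene therefore gave unequal sizes for the same comparison, and none passed the test.

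Myo7a encodes the motor that binds harmonin at the upper end of the tip link and is mutated in Usher syndrome type 1B. Its probe read 8.13, 7.84, 7.99, 7.76 and 7.79 at 4 weeks, 7.97, 8.24, 7.65, 8.32 and 8.49 in control mice, and 7.96 to 8.53 with a median of 8.22 in M+V-treated mice. In all, 4 of the 5 values at 4 weeks were under 8.00, as were 2 of the 5 control values and 1 of the 6 M+V values. The means were 7.90 ± 0.15 (SD, n = 5), 8.13 ± 0.33 (SD, n = 5) and 8.22 ± 0.19 (SD, n = 6). M+V was 0.32 above 4 weeks (SE 0.14, 95% interval 0.03 to 0.61, or 1.02-fold to 1.53-fold). Its unadjusted p of 0.0331 was the lowest of any member in any comparison, and after adjustment over the tested probes it was 0.183 in limma. Within the arrays of high spike-in level the same difference was 0.41, with an adjusted p of 0.177, and with the mean of the bone and matrix list as a covariate it was 0.0027, with an adjusted p of 0.999. The mean of that list itself lay apart between ages, at 12.4 to 12.5 at 4 weeks and 10.5 to 11.6 at 12 weeks. Control was 0.23 above 4 weeks (adjusted p 0.509 in limma), and M+V was 0.09 above control (95% interval -0.20 to 0.38, adjusted p 0.858).

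Myo15 encodes the motor that carries elongation factors to the stereocilia tips. Its signals were 7.54, 7.46, 7.19, 7.05 and 7.09 at 4 weeks, 6.77, 6.94, 6.68, 6.91 and 7.42 in control mice, and 6.74 to 7.42 with a median of 7.19 in M+V-treated mice. In all, 4 of the 5 control arrays lay below every array of 4 weeks, and control replicate 5 lay among them. The mean was 0.32 lower in control than at 4 weeks. Because the probe entered the tested set only through the 4 weeks group, where it was highest, its p is given from the fit without the filter, 0.0689 before and 0.578 after adjustment in limma. Without control replicate 5 the difference was -0.44. M+V lay between the other groups, 0.17 above control and 0.15 below 4 weeks. The 95% interval against control was -0.14 to 0.48, from the fit over the tested probes. Against 4 weeks, the fit without the filter gave an adjusted p of 0.708 in limma.

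Ush1c encodes harmonin, the scaffold that ties the tip link to actin. It read 8.73, 7.92, 8.42, 7.69 and 8.45 at 4 weeks, 7.78, 8.36, 8.14, 7.87 and 8.70 in control mice, and 7.98 to 8.81 with a median of 8.19 in M+V-treated mice. The groups overlapped, and the means were 8.24, 8.17 and 8.26. M+V differed from control by 0.09 (95% interval -0.34 to 0.51), or 0.792-fold to 1.43-fold.

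The actin crosslinkers could not be read with precision. Fscn2 encodes fascin 2, which bundles actin along mature stereocilia, and Espn encodes espin, which sets their length and width. In control mice the Fscn2 probe was high in 2 arrays and low in 3. It read 5.08, 5.47, 5.80, 2.12 and 3.94 at 4 weeks, 2.59, 5.33, 2.46, 2.41 and 5.50 in control mice, and 2.91 to 5.11 with a median of 3.89 in M+V-treated mice. M+V minus control was 0.36 with an interval from -1.25 to 1.98, and it ran from 0.05 without control replicate 4 to 0.83 without control replicate 5. Espn read 4.25, 3.10, 4.82, 2.39 and 0.66 at 4 weeks and 2.26, 2.32, 2.78, 2.34 and 2.29 in control mice. In M+V-treated mice it read 2.08 to 4.67 with a median of 3.22. The M+V minus control difference was 0.86 (95% interval -0.55 to 2.28, 0.681-fold to 4.85-fold), with an adjusted p of 0.797 in limma. On the log2(signal + 32) scale, which shrinks low signals, it was 0.22 for Espn and 0.0056 for Fscn2. The control signals of Espn were the closest together of the 3 groups, at 2.26 to 2.78.

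The genes of the hair cell body were split in the same way. Otof encodes otoferlin, the calcium sensor for vesicle release at the inner hair cell synapse. Its signals were 8.27, 7.62, 8.73, 7.58 and 8.12 at 4 weeks, 7.93, 8.23, 7.53, 7.49 and 8.59 in control mice, and 7.50 to 8.42 with a median of 7.87 in M+V-treated mice. Each group held arrays below 7.70 and arrays above 8.20. The M+V minus control difference was -0.06 (95% interval -0.57 to 0.46, adjusted p 0.953 in limma). The spread of Otof within groups was an SD of 0.44, above that of 93.5% of tested probes, for which the median was 0.22. Slc26a5 encodes prestin, the motor protein of outer hair cells. It read 4.09, 3.68, 3.09, 2.40 and 0.68 at 4 weeks, 4.69, 2.08, 3.14, 1.62 and 2.24 in control mice, and 0.64 to 5.66 with a median of 2.08 in M+V-treated mice. Its M+V minus control difference of 0.08 had an interval from -1.85 to 2.00, or 0.278-fold to 4.01-fold, and it was -0.49 without M+V replicate 2.

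No member probe was called higher or lower in any of the 3 comparisons at an adjusted p under 0.05 in limma, and none passed the study's cutoffs of a fold over 1.5 with an unadjusted p under 0.05. For M+V against control, 0% of the 21391 tested probes were called in either direction, 1.54% passed the study's cutoffs (3.54% of all probes in the fit without the filter) and 9.8% had an unadjusted p under 0.05 (7.25% without the filter), and 0 of 15 member probes had one. For M+V against 4 weeks 5.28% of tested probes were called (0.704% without the filter), 4.39% passed the study's cutoffs (6.04%), 22.2% had an unadjusted p under 0.05 (14.1%), and 1 member probe, that of Myo7a, had one. For control against 4 weeks 1.38% were called (0.211% without the filter), 2.43% passed the study's cutoffs (4.26%), 13.8% had an unadjusted p under 0.05 (9.27%), and 0 member probes had one. The methods' t-test also called 0 member probes in each comparison and gave unadjusted p-values under 0.05 for 0, 1 and 1 of them. The median difference over the brightest probes of the 10 members was 0.09 for M+V against control, 0.03 for M+V against 4 weeks and -0.09 for control against 4 weeks, beside 0.01, 0.01 and -0.00098 over all probes. M+V was above control for 8 of the 10 genes and control was below 4 weeks for 8 of the 10. Both of these comparisons use the same control arrays, so these counts are not separate. M+V was above 4 weeks for 6 of the 10 and below for 4. The counts include Cdh23, Fscn2, Espn and Slc26a5, whose intervals were wide on either side of 0. The share of all probes in each direction is not given here, so no pattern is read from these counts. The groups overlapped for every member probe in every comparison, whereas 1.1% of tested probes separated M+V from control, 4.74% separated M+V from 4 weeks and 5.61% separated control from 4 weeks.

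**Figure D2:**
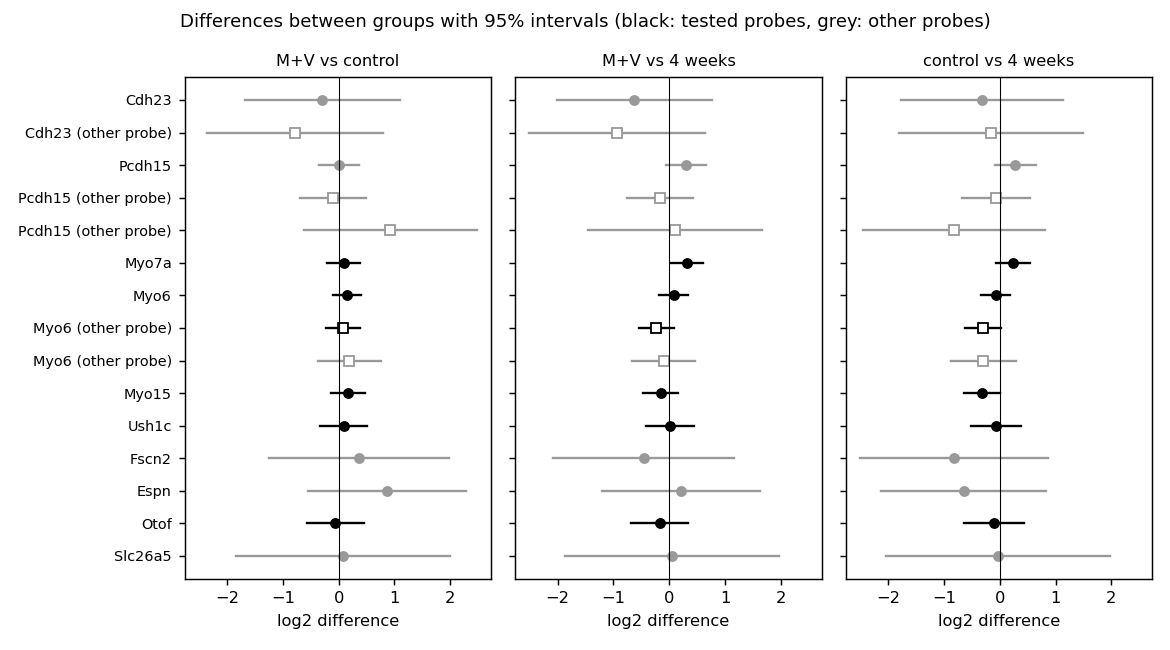
Difference between group means (log2) for all 15 member probes in the 3 comparisons, with 95% intervals; circles are the brightest probe of a gene, open squares its other probes, black the tested probes and grey the probes outside the filter. The intervals are narrow for the brightest probes of the myosins, Ush1c and Pcdh15 and wide for Cdh23, Fscn2, Espn and Slc26a5. The Myo7a interval for M+V against 4 weeks, 0.03 to 0.61, is the single one that leaves out 0. Myo15 is among the tested probes through the 4 weeks group alone.

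The spike-in level was unequal between ages, and a fit with this level as a block gave other sizes in the comparisons with 4 weeks. Under the block, probes of Pcdh15, Myo6 and Cdh23 had an unadjusted p under 0.05 in limma, and none passed after adjustment. Myo15 was -0.47 in control relative to 4 weeks under the block, against -0.32. No p is given for it here, because its probe entered the tested set only through the 4 weeks group. The brightest Pcdh15 probe was 0.54 higher in M+V (95% interval 0.14 to 0.94, adjusted p 0.161 in limma) and 0.58 higher in control (0.14 to 1.01, adjusted p 0.337) than at 4 weeks, against 0.29 and 0.28 without the block. The other Pcdh15 probes did not share one direction. Relative to 4 weeks they were -0.23 and 0.91 in M+V and -0.14 and 0.15 in control under the block. Without the block they were -0.17 and 0.10 in M+V and -0.07 and -0.83 in control. The second Myo6 probe was -0.42 in M+V (adjusted p 0.140) and -0.53 in control (adjusted p 0.212) relative to 4 weeks, against -0.23 and -0.30. Under the block the brightest Myo6 probe was 0.10 in M+V and -0.04 in control relative to 4 weeks. The dimmest was -0.17 and -0.38. The second Cdh23 probe was -2.12 in M+V relative to 4 weeks (adjusted p 0.197), against -0.93. For the same comparison the brightest Cdh23 probe was -0.36 under the block, against -0.62. The difference of Ush1c between M+V and 4 weeks turned from 0.02 to -0.24 and that of Otof went from -0.17 to -0.37, with adjusted p-values of 0.561 and 0.467. Since no array of 4 weeks had the low level, a comparison with 4 weeks in this fit draws on the 3 arrays at 12 weeks that had the high level. For M+V against control, the block gave 0.15 for Myo6, 0.09 for Myo7a and 0.19 for Myo15, against 0.15, 0.09 and 0.17 without it. Ush1c went from 0.09 to 0.14, Otof from -0.06 to -0.02, and Fscn2 from 0.36 to 0.51, while the brightest Pcdh15 probe turned from 0.01 to -0.04 and Slc26a5 from 0.08 to -0.15.

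The same was looked at in 2 wider lists without the members. The hair bundle list holds 26 further genes, of which 15 had a probe with that single symbol and 8 were tested. The list of hair cell synapse, channels and identity holds 18, of which 14 had such a probe and 8 were tested. Of these 29 genes, 0 were called by limma in any comparison. Of the tested probes 0% were called for M+V against control, 5.28% for M+V against 4 weeks and 1.38% for control against 4 weeks. An unadjusted p under 0.05 in limma was found for 2 genes in M+V against control, beside 9.8% of tested probes (7.25% without the filter). It was found for 3 in M+V against 4 weeks, beside 22.2% (14.1%), and for 4 in control against 4 weeks, beside 13.8% (9.27%). Of the 2 in M+V against control, 1 was Eps8, which caps actin at stereocilia tips and is used by many other cells. Eps8 was 0.35 lower in M+V than in control (95% interval -0.59 to -0.10, adjusted p 0.431 in limma) and 0.36 lower than at 4 weeks (adjusted p 0.0782). The other was Myo3a, a myosin of stereocilia tips whose mean signal of 2.48 was far below the array median, with a difference of 2.73 (95% interval 1.06 to 4.41, adjusted p 0.683), the only one past the study's cutoffs in that comparison. Lhfpl5, a subunit of the transduction channel complex, differed by 0.27, and Pls1, the actin bundler plastin 1, by 0.17, with adjusted p-values of 0.577 and 0.578. In the second list the differences furthest from 0 for their error were 0.61 for Chrna9, -0.50 for the transcription factor Barhl1, -0.50 for Pou4f3 and -0.31 for the calcium buffer Pvalb, with adjusted p-values between 0.760 and 0.809. The median difference for M+V against control was 0.04 in the first list and 0.05 in the second, beside 0.01 over all probes.

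Although the groups did not separate, 2 pairs of members varied together from cochlea to cochlea. After each group's mean was subtracted, the brightest probes were compared over the 16 arrays in all 45 pairs of members, with permutations within groups. Otof and Ush1c had a Pearson r of 0.78 (permutation p 0.00156, adjusted over the 45 pairs 0.0403) and a Spearman rho of 0.78 (permutation p 0.00273, adjusted 0.0863). Without the 2 arrays farthest from the median of Ush1c the Pearson r was 0.68. Within the 7 arrays of high spike-in level that shared a group with another it was 0.78, and within the 8 of low level it was 0.85. The high values of both came from 4 weeks replicates 1, 3 and 5, control replicates 2 and 5 and M+V replicate 3, and the low values from 4 weeks replicates 2 and 4 and control replicate 4. Fscn2 was below the median in every array. Its r with Myo15 was 0.72 (permutation p 0.00179, adjusted 0.0403; rho 0.67, permutation p 0.00575, adjusted 0.0863; 0.62 without the 2 farthest arrays, 0.64 and 0.72 within the spike-in levels). With Otof it was 0.73 and with Ush1c 0.69, with adjusted permutation p-values of 0.0914 and 0.132. Single animals departed from this, such as 4 weeks replicate 2 with Fscn2 at 5.47 and Otof at 7.62. By Spearman's rho 0 of the 45 pairs passed after adjustment, and by Pearson's r 2 did. Myo15 with Otof (0.53) and with Ush1c (0.48) did not pass. Slc26a5 had no r with Otof, Ush1c or Fscn2 outside -0.04 to 0.06.

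**Figure D3:**
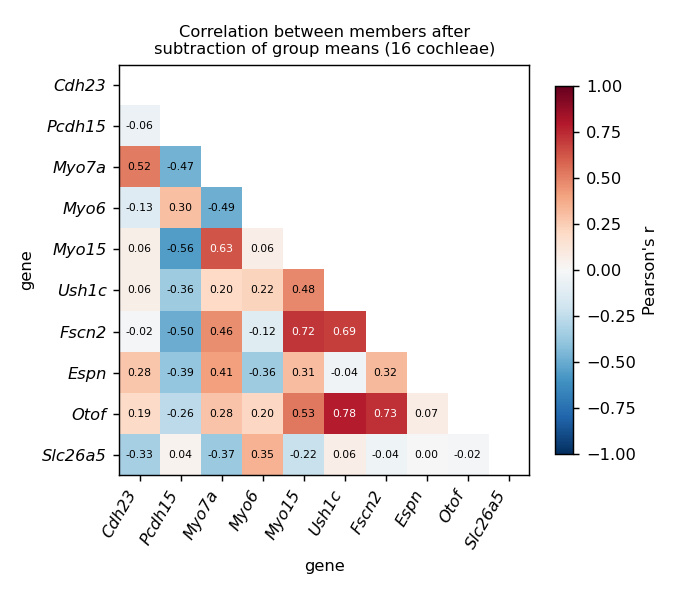
Pearson's r between the brightest probes of each pair of members over 16 cochleae, after the mean of each group was subtracted; red is positive and blue negative. The 6 values among Otof, Ush1c, Fscn2 and Myo15 run from 0.48 to 0.78, and 2 of them, Otof with Ush1c and Myo15 with Fscn2, passed after adjustment.

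**Figure D4:**
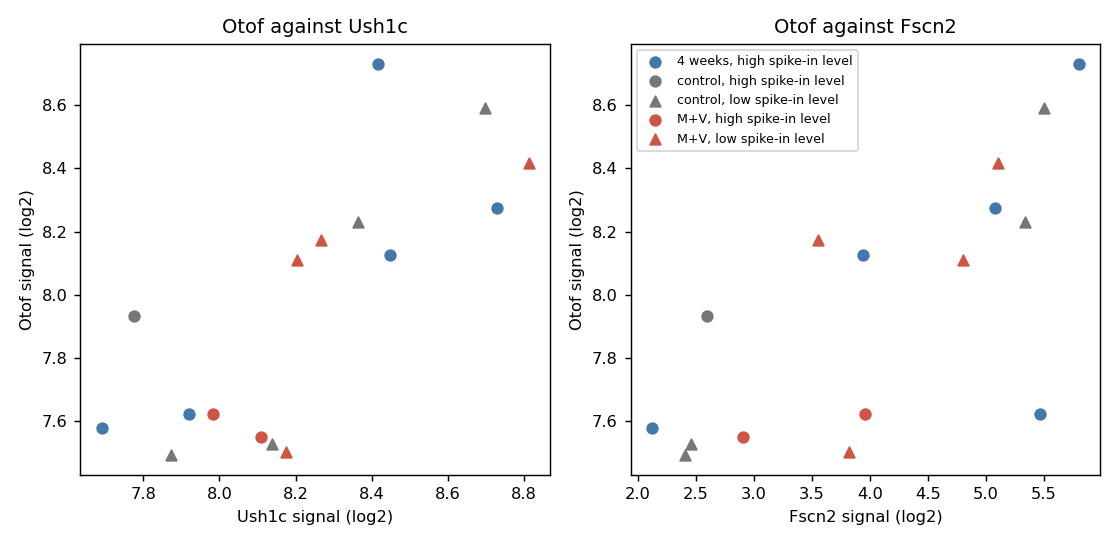
Signals (log2) of Otof against Ush1c (left) and against Fscn2 (right) in each of the 16 cochleae; colour gives the group and shape the spike-in level (circles high, triangles low). Animals of all 3 groups spread along both relations, and no group occupies an end of its own.

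Otof and Ush1c also followed genes of other cells of the dissected tissue. Otof had an r of 0.76 and Ush1c of 0.86 with the mean of the supporting cell list over the same arrays. The tested genes of that list were uneven. With Otof, r was 0.88 for Otog, 0.72 for Otoa, 0.58 for Tectb, 0.38 for Gjb6 and 0.36 for Gjb2. It was 0.24 for Sox2, -0.003 for Fgfr3 and -0.27 for Jag1. With Ush1c, r was 0.88 for Otog, 0.78 for Tectb, 0.60 for Otoa, 0.54 for Gjb2 and 0.41 for Gjb6. Sox2, Fgfr3 and Jag1 had 0.28, -0.07 and -0.13 with Ush1c. These supporting cell means ran from 9.30 to 9.73 at 4 weeks, 9.15 to 9.61 in control and 9.20 to 9.71 in M+V. The mean of the list of cerebellar and brainstem neurons had an r of 0.70 with Otof and 0.64 with Ush1c, and that of spiral ganglion and other neurons 0.47 and 0.65. The astrocyte list had 0.56 and 0.59, the list of hair cell synapse, channels and identity 0.49 and 0.75, and the hair bundle list 0.38 and 0.33. The bone and matrix list had 0.13 and 0.03, and the erythroid list 0.12 and 0.15. The brightest Myo6 probe had an r of 0.52 with the supporting cell mean and 0.48 with that of the cochlear tissue list. With the hair bundle list it had 0.14, and with the list of hair cell synapse, channels and identity 0.19. Of the tested probes 8.24% had an r of at least 0.5 with Otof and 11.4% with Ush1c, against 3 of 8 and 4 of 8 tested supporting cell genes and 3 of 8 and 4 of 8 tested genes of the hair cell synapse list. In the spiral ganglion list 5 of 11 and 9 of 11 had one, and in the hair bundle list 0 of 8 and 1 of 8. Gfi1, used above as a hair cell marker, had an r of -0.006 with Otof and -0.13 with Ush1c. A pair of genes chosen after their values were seen had the highest r with Otof in these lists: Otog, which encodes otogelin of the tectorial and otolithic membranes, at 0.88, and Cabp2, a calcium-binding protein of the hair cell synapse, at 0.79. The points share an array each, so differences in dissection and scaling enter all of these values, and their part in them was not tested. With the supporting cell mean as a covariate, a setting added after the arrays were seen, M+V minus control was -0.19 for Otof and -0.03 for Ush1c, with adjusted p-values of 0.663 and 0.937 in limma.

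The promoters of Ush1c, Myo15 and Fscn2, members of the 2 pairs that varied together, are shown because MET and VPA act on DNA and chromatin marks, although no such mark was measured here. RefSeq sequences of 300 bases around the gene start (250 before and 50 after) on GRCm38.p6 were matched for 9 of the 10 members, in 12 windows. Capitals mark CAGNTG on either strand, where N is any base; this is a form of the E-box to which basic helix-loop-helix factors such as Atoh1 bind. The Ush1c window is chr7:46238441-46238740 on the minus strand, that of Myo15 is chr11:60469089-60469388 on the plus strand, and that of Fscn2 is chr11:120361284-120361583 on the plus strand.
Ush1c: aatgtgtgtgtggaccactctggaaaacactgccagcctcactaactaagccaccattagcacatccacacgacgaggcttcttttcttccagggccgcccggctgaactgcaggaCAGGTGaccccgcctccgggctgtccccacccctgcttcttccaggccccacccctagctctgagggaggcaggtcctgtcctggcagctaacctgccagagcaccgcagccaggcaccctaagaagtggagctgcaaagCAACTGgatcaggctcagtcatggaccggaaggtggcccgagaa
Myo15: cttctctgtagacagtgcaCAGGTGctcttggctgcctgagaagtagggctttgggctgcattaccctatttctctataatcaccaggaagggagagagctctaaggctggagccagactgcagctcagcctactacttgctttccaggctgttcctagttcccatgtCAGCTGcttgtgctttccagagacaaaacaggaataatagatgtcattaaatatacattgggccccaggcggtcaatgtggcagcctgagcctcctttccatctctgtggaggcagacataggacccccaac
Fscn2: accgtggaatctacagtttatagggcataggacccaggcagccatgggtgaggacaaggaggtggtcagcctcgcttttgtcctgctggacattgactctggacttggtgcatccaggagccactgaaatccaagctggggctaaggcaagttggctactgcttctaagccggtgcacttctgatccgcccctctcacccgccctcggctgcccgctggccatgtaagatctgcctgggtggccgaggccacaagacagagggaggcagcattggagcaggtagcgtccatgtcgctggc
The motif occurs 2 times in the windows of Ush1c and Myo15 and 0 times in that of Fscn2, and 6 of the 9 members have it in at least 1 window. Of 32817 promoter windows of this length, 51.4% hold it. That share is of single windows, whereas 6 of 9 counts genes, some with several windows, so the rates are of unlike units. CpG dinucleotides, the usual site of DNA methylation, number 9 in Ush1c, 1 in Myo15 and 10 in Fscn2, against a median of 7 over all windows. The Myo6 window has the most among the members, 22, and 78.5% of windows have no more than that.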

How the data were processed

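Total RNA of each whole left cochlea was hybridized to an Affymetrix GeneChip array of the mouse genome. The authors extracted MAS5 signals (GCOS and MAS5 in the submitters' processing notes, versions not given in the sources used here) and quantile-normalized them. The deposited values are these signals on the log2 scale, and sorted values were identical across the 16 arrays. Present calls were not used here. Tests were run on the 21391 of 45037 probes at or above the array median throughout at least 1 group. In the annotation 34945 probes had 1 symbol, 932 had several and 9160 had none, and all 10 member gene identifiers matched GRCm38.p6.

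Signals under 1 were set to 1 (0.869% of values, 0 of the members'). One limma 3.58.1 model in R 4.3.3 (lmFit, contrasts.fit, eBayes) with a mean per group was fitted over all 16 arrays, with two-sided tests and Benjamini-Hochberg adjustment over the tested probes at 0.05. It was tested on simulated data. A gene is given by its brightest probe, the one with the highest mean over all arrays, and its other probes by their values or range. From the wider hair bundle and hair cell lists, up to 4 genes each with the largest moderated t for M+V against control are named. Other lists appear as means per array over 1 probe per gene. Correlations used 100000 permutations within groups. Alternatives were limma-trend, cyclic loess, log2(signal + 32), other filters, the methods' t-test, fits of the compared groups alone, array weights, blocks for replicate number and spike-in level, each spike-in level alone, covariates for the Gapdh 3'/5' ratio, brain tissue and bone, and leaving out each array. How many arrays there are sets the precision. The members and lists were chosen with earlier results of these data known.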

Additional observations from a re-analysis of the deposited data

Results flagged for a closer look

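In 4 of 45 sets of values (15 probes in 3 groups), 1 array lay far from the others of its group for its range; chance alone flags about 1 in 20. Ush1c in M+V replicate 3 was the highest, at 8.81. A Pcdh15 probe other than the brightest was highest in 4 weeks replicate 2, at 5.55, and another was lowest in 4 weeks replicate 4, at 2.06. Espn in control replicate 3 was the highest of its group, at 2.78. The last 3 values lie below the array median.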

How the results depend on the processing

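No member probe was called higher or lower under any alternative run. The number past the study's cutoffs rose from 0 to 1 for M+V against 4 weeks with the spike-in level as a block (a Cdh23 probe) and with the bone and matrix covariate (a Myo6 probe), and for control against 4 weeks with the bone and matrix covariate (the same Myo6 probe). When arrays were left out singly it was 0 to 1 for control against 4 weeks, the 1 being a Pcdh15 probe without 4 weeks replicate 4. The lowest adjusted p of a member probe over all alternatives was 0.397 for M+V against control (Myo6 without M+V replicate 4, at 0.25), 0.101 for M+V against 4 weeks (Myo7a with array weights) and 0.161 for control against 4 weeks (the second Myo6 probe with array weights). Of the members' differences under these settings, 300 of 335 kept their direction in M+V against control. In M+V against 4 weeks 301 of 325 did, and in control against 4 weeks 300 of 325 did. None of those that turned was past the threshold. Myo7a for M+V against 4 weeks was 0.00 with the bone and matrix covariate, which itself differs with age. In M+V against control, Otof ran from -0.17 to 0.10 and Ush1c from -0.02 to 0.22 when 1 array was left out.

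Replicate numbers recur in the 3 groups but did not pair the arrays. The residuals of arrays with a shared number correlated with a median r of 0.0126 over 15 pairs, against -0.0190 in the remaining pairs, and r was over 0.1 in 6 of the 15. With the replicate block, 0 member probes were called in any comparison, and Myo7a for M+V against 4 weeks was 0.33 with an adjusted p of 0.227.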
